A study of Mus musculus with 4 samples.

Results

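The difference between AMKO and Ctrl LSK cells before any treatment was read from 2 of the 4 arrays of the series, 1 of each genotype, as the log2 value in AMKO minus the log2 value in Ctrl. Of 22180 genes with a probe set of their own, 14061 reached the floor, a log2 value of 5.475 that is the median of the whole table, in at least 1 of the 4 arrays, and these kept genes were described. LSK cells are bone marrow cells without lineage markers that carry Sca-1 and c-Kit, and they include hematopoietic stem cells and multipotent progenitors. The mice, AMKO or Ctrl, were males of the strain C57/B6 and 4 months old, and the cells were taken at day 0, when no 5-fluorouracil (5FU, a pyrimidine analog toxic to dividing cells) had been given. The other arrays held the same cells of both genotypes at day 8 after 150 mg/kg of 5FU, and they are used here for the floor, for the choice of probe set and as values set beside the basal ones. What AMKO stands for is not in the labels, nor are the cells in which the change was made, the genotype of the Ctrl mice or the number of mice behind an array, so the targeted gene could not be checked. With 1 array a side there is no replicate error and no test, and all differences are given as sizes. A difference of 1 on the log2 scale is 2-fold, the size used for counts.

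Stem cells of the marrow are mostly quiescent, and they are held in that state by transcription factors, cytokine receptors and niche signals. Immediate early genes, such as those of the AP-1, EGR and NR4A families, are transcribed within minutes of a stimulus without new protein synthesis, and some of them are also expressed in resting stem cells. Fast and slow skeletal muscle fibres use different forms of the contractile proteins, and neither set is part of the known program of blood stem cells.

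The sorted cells carried the markers of their gate in both arrays. Kit, which encodes c-Kit, had a log2 value of 11.84 in Ctrl and of 11.87 in AMKO. The stem cell transcription factor gene Meis1 stood at 11.55 and 11.59. The T-cell genes Cd3e, Cd4 and Cd8a and the neutrophil gene Ly6g were under the floor in both arrays, and the myeloid integrin gene Itgam stood at 5.61 in Ctrl and 6.20 in AMKO. Ly6a, which encodes Sca-1, had no probe set of its own. Of the sex-linked genes, Eif2s3y, Kdm5d and Uty from the Y chromosome were above the floor in both basal arrays and Xist was under it. In the Ctrl day 8 array Xist, an RNA of the silenced X chromosome in female cells, stood at 7.65, against 3.97 to 4.41 in the other arrays, which goes against the male label of that array. The Y-linked genes stood at 7.45 to 8.88 there, and day 8 values set beside basal ones below rest on that array too.

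Most genes differed little between the arrays. Over the kept genes the median difference was 0.00, and the quartiles lay at -0.18 and 0.17. The lowest 1% of differences lay under -0.91 and the highest 1% over 0.734. At least 2-fold higher in AMKO were 32 genes (0.228% of those kept), and 98 were at least 2-fold lower (0.697%), together 0.925%. The higher share of these was 24.6%, and it was 14.0% when each array was centred on its median. The lower side also held the largest differences, with 16 genes at least 4-fold lower against 2 higher, and 6 at least 8-fold lower against 0 higher. Of the 98 lower genes 17 were in the skeletal muscle list, which is treated apart below. In all 17 the Ctrl basal array lay at least 2-fold above each other array. Myh4, Atp2a1, Acta1 and Ttn, each at least 8-fold lower, were among them, and Klk1b22 was also high in that array alone. Without the muscle list the higher share was 28.3%. The threshold divides a continuous range. Just inside it, from 1 to 1.05 on the log2 scale, lay 9 higher and 7 lower genes, and just outside, from 0.95 to 1, lay 11 higher and 14 lower genes.

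The size of the differences depended on the level of the genes. The kept genes were divided by mean level into 4 bins of about the same size. The standard deviation over genes was 0.37 in the bin with the lowest levels and 0.23 in that with the highest. The lowest bin had a median difference of 0.09 with 61.1% of genes higher in AMKO, and the other bins had medians from -0.03 to -0.01. Of the genes at least 2-fold lower, 46 were under the floor in AMKO, and of those at least 2-fold higher, 10 were under it in Ctrl. The sizes of such differences are uncertain. Different probe sets of 1 gene also differed. Over 478 genes with several probe sets at the floor, the range between their basal differences had a median of 0.29, and it was at least 2-fold for 29 of them.

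**Figure D1:**
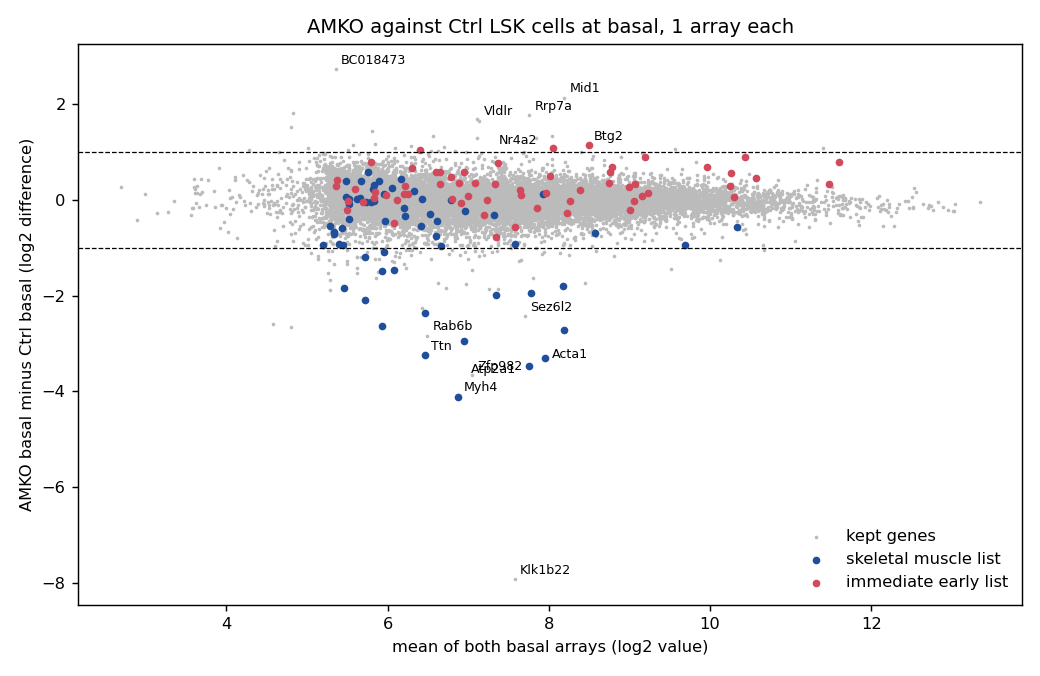
Log2 difference between AMKO and Ctrl at basal for the kept genes (vertical axis) against the mean log2 value of both basal arrays (horizontal axis), with members of the skeletal muscle list in blue and of the immediate early list in red, and dashed lines at 2-fold. The muscle genes reach down to -4.11, while the immediate early genes lie between -0.77 and 1.15, with 48 of 61 above 0.

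Genes of skeletal muscle stood apart in the Ctrl basal array. Of 82 listed genes 80 were measured and 60 were kept, and over these the median difference was -0.55. At least 2-fold lower in AMKO were 17 of the 60 (0.697% of all kept genes were), and 0 were higher (0.228%). Over all 80 measured genes the median was -0.31. The floor favours such genes, since 13 of the 60 reached it in the Ctrl basal array alone, among them 8 of the 17, so values over the kept genes are a description and no support. Over the 80 measured genes, with no floor, 48 had their highest value in the Ctrl basal array, or 60.0%, against 19.7% of all measured genes. The excess of that array over the mean of the remaining arrays had a median of 0.32 over the 80 genes and -0.04 over all measured genes. The list was chosen with earlier results on these arrays known, so the values without a floor are a description too and no independent evidence. Between the other arrays the medians over the 60 kept genes were smaller, with 0.07 for AMKO basal minus Ctrl day 8 and 0.135 for AMKO basal minus AMKO day 8. Whether muscle tissue reached the cells of the Ctrl basal array was not tested, and in bulk samples fewer cells of a type and less RNA per cell cannot be told apart.

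The largest differences of the list were those of Myh4, Atp2a1, Acta1, Ttn and Ckm. Myh4, the myosin heavy chain of the fastest fibres, stood at 8.93 in Ctrl basal, 4.82 in AMKO basal, 4.59 in Ctrl day 8 and 4.19 in AMKO day 8. The basal difference was -4.11, or 17.3-fold. Acta1, skeletal muscle actin, had values of 9.61, 6.30, 7.07 and 6.82 in the same order, a basal difference of -3.31. For both genes the Ctrl basal array was the highest, and the remaining arrays lay closer to each other than to it. Atp2a1, the calcium pump that returns calcium to the sarcoplasmic reticulum in fast fibres, stood at 9.49 in Ctrl and 6.02 in AMKO. Tnni2, the inhibitory troponin of fast fibres, stood at 9.54 and 6.83, and Tnnt3, its tropomyosin-binding partner, at 8.75 and 6.81. Tnni2 and Tnnt3 are neighbours in the genome with 1 kept gene between them, the leukocyte gene Lsp1, whose difference was -0.06.

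Not all fast-fibre genes had this pattern. Myl1, a myosin light chain of fast fibres, differed by -0.05. Myh2, another fast myosin heavy chain, stood at 5.68 in Ctrl and 4.98 in AMKO at basal, with 5.57 and 4.68 at day 8, and Myh1, under the floor in the 4 arrays, at 4.06 and 4.43. Of slow-fibre genes, Myh7, the slow myosin heavy chain, stood at 5.47 and 6.05, and Tnnc1, the slow troponin that binds calcium, differed by 0.00. Some of the genes low in AMKO at basal were also lower in AMKO at day 8, where Tnnc2 differed by -1.11, Ckm by -0.91, Actn3 by -0.83 and Tnni2 by -0.74, while the median of the muscle list was -0.03.

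The muscle groups can be ordered by their part in the fibre. Thin filament genes had a median of -0.94 over 12 kept genes, and titin and Z-disc genes a median of -0.92 over 11. Ttn, the giant spring protein of the sarcomere, was at 8.09 in Ctrl and at 4.85 in AMKO, and Actn3, the Z-disc actinin of fast fibres, at 7.65 and 5.28. Calcium handling genes had a median of -0.66 over 9. Energy supply genes had a median of -0.64, and all 10 kept were lower in AMKO, led by Ckm, the muscle creatine kinase, at 8.42 in Ctrl and 5.47 in AMKO. A second probe set of Ckm, under the floor, gave 0.01. Thick filament genes had a median of -0.11 over 10, with 3 at least 2-fold lower (0.697% of all kept genes were). The 8 genes of regulators and membrane proteins, which include those that direct muscle formation, had a median of 0.09. Myod1, the transcription factor that starts the muscle program, stood at 5.45 in Ctrl and 5.51 in AMKO, and Pax7, a marker of muscle stem cells, at 5.47 and 5.87. Pygm, the muscle glycogen phosphorylase, was high in both basal arrays (10.16 in Ctrl and 9.23 in AMKO) and lower at day 8 (6.42 and 6.75), so its values followed the time and not the Ctrl basal array alone.

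**Figure D2:**
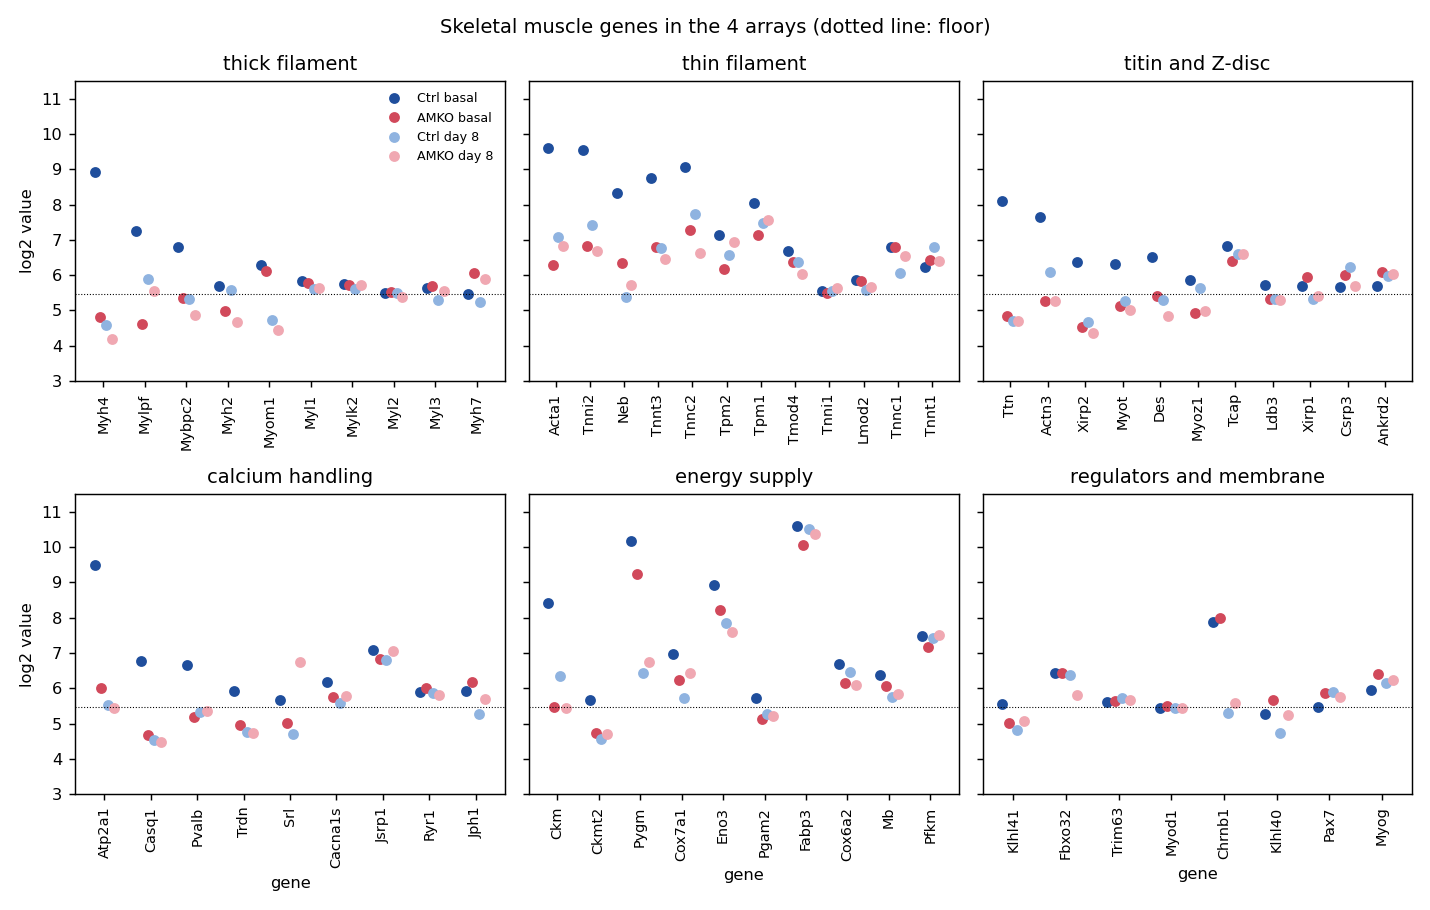
Log2 values of the 60 kept skeletal muscle genes in the 4 arrays, by role and ordered within a role by the basal difference, with 1 point per array and a dotted line at the floor. The dark blue points of Ctrl basal stand above the others for the genes on the left of most panels, such as Myh4 (8.93 against 4.19 to 4.82), and mix with them for the regulators.

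The promoters of Acta1 and Myh4 are shown because each holds the serum response factor site known as the CArG box. The 250 bases before the RefSeq start of transcription (GRCm38.p6, both on the strand of the gene) are Acta1 at chr8:123894776-123895025 on the minus strand and Myh4 at chr11:67237562-67237811 on the plus strand. Capitals mark CArG boxes, MEF2 sites and TATA boxes (TATAAA), searched on both strands, and in Myh4 1 TATA match lies within the MEF2 match.
Acta1: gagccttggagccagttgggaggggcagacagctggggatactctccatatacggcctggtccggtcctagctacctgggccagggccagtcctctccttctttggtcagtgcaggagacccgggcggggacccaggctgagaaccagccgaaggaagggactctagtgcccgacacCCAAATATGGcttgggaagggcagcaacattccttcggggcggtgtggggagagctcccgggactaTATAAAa
Myh4: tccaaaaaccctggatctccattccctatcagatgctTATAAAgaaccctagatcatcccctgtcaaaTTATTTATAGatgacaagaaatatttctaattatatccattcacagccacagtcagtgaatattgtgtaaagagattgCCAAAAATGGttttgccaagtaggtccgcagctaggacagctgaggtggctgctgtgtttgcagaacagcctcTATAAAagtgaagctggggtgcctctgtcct
The CArG box of Acta1 lies from 73 to 64 bases before the start and that of Myh4 from 104 to 95. Among promoters of this length 1.40% of all 27025 and 1.17% of the 11022 of kept genes held a CArG box. So did 5 of the 44 promoters found for kept muscle genes. A MEF2 site was in 1.73% of all promoters, in 1.04% of those of kept genes and in 6 of these 44. A match is a description of letters and not of binding.

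Without the muscle list there remained 32 higher and 81 lower genes, and the lowest of these was also raised in the Ctrl basal array alone. Klk1b22, a glandular kallikrein (a secreted serine protease known from the salivary gland), stood at 11.54 in Ctrl and 3.61 in AMKO at basal, and at 4.30 and 4.05 at day 8. That is a difference of -7.93, the largest of all kept genes, with 3 arrays under the floor. Other salivary and kallikrein genes did not show it. Of 19 measured genes of that list 4 were kept. Klk1b9 stood at 4.17 and 3.64, Klk1b16 at 6.05 and 6.45 and Klk1b27 at 3.62 and 3.58 in Ctrl and AMKO. These genes are near-identical copies, so which of them the probe set of Klk1b22 reads is uncertain.

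Of the 81 genes, 22 were like Klk1b22 in that the Ctrl basal array lay at least 2-fold above each other array. Rab6b, a small GTPase of Golgi transport, was at 7.91 in Ctrl and at 5.07 in AMKO, with 5.99 and 6.22 at day 8. Pkhd1l1, a large membrane protein of the fibrocystin family, was at 7.56 and 5.30, with 5.49 and 5.00 at day 8. For Gdpd3, a lysophospholipase, the values were 8.30 and 6.44, with 6.71 and 6.18 at day 8. In Pkhd1l1 and Gdpd3 AMKO basal lay between the day 8 values, and in Rab6b it lay under both.

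In another 22 of the 98 lower genes it was the AMKO basal array that lay at least 2-fold below each other array. Zfp982, a zinc finger gene, was at 8.88 in Ctrl and 5.22 in AMKO at basal, and at 7.71 and 7.91 at day 8, a basal difference of -3.66. Anxa6, a calcium-dependent membrane-binding annexin, was at 7.16 and 5.92 at basal against 7.93 and 7.98 at day 8. Apobec3, an antiviral cytidine deaminase chosen after its values were seen, was at 11.19 in Ctrl and at 10.14 in AMKO, with 11.25 and 11.18 at day 8. These genes differed at basal and hardly at day 8.

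Several lower genes were at or above the floor in both basal arrays. Slc7a8, a transporter of neutral amino acids, stood at 10.24 in Ctrl and 8.79 in AMKO, a 2.73-fold difference, and at 9.59 and 9.27 at day 8. Runx1t1, a transcriptional corepressor known as ETO, stood at 8.62 and 7.0 at basal, and near the floor at day 8 (5.37 and 5.59). Hpgds, the hematopoietic prostaglandin D synthase, stood at 7.64 and 5.80 at basal and was under the floor in both genotypes at day 8. Fzd6, a receptor for Wnt ligands, stood at 7.77 and 6.63. Sez6l2, a membrane protein known from neurons, stood at 8.92 and 6.49, but its other probe sets gave -0.78 and -0.06.

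Among the 32 higher genes, those with the largest differences and both basal arrays at the floor were, without predicted symbols, Mid1, Rrp7a and Vldlr. Mid1 encodes a microtubule-associated ubiquitin ligase, and in the mouse it spans the pseudoautosomal boundary of the X chromosome. It stood at 7.12 in Ctrl and 9.26 in AMKO at basal, and at 6.82 in both genotypes at day 8. That is a 4.41-fold difference in which AMKO basal stood above the other arrays, while a second probe set, under the floor, gave 0.30. The other measured pseudoautosomal genes differed less, with 0.17 for Erdr1 and 0.35 for Asmt. Rrp7a, a ribosome assembly factor, was at 6.87 and 8.64, with 7.22 and 7.14 at day 8, and its second probe set gave -0.32. Vldlr, a receptor of the lipoprotein receptor family, was at 6.30 and 7.96, with 7.33 and 7.22 at day 8, so its Ctrl basal value was the lowest of the arrays as its AMKO basal value was the highest.

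The AMKO basal array lay at least 2-fold above each other array for 12 of the 32 higher genes. Muc1, a membrane mucin, was at 7.19 in Ctrl and 8.49 in AMKO, against 6.76 and 7.12 at day 8. Zg16, a secretory granule lectin, was at 6.47 and 7.76, and at 4.23 in both genotypes at day 8. Pisd-ps3, a pseudogene of phosphatidylserine decarboxylase, stood at 10.86 and 11.95, against 10.11 and 9.66. Dhrs3, an enzyme that reduces retinaldehyde, stood at 9.03 and 10.09 and was lower in AMKO at day 8 (9.02 and 7.67). For 4 of the 32 genes it was the Ctrl basal array that lay at least 2-fold under each other array. Cdc6, which loads the replicative helicase at origins, was among them, at 6.47 and 7.48, with 8.24 and 8.10 at day 8. BC018473 had the largest difference of all higher genes, 2.73, but it was under the floor in Ctrl (3.99) and its direction was opposite at day 8 (7.73 in Ctrl and 4.38 in AMKO).

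**Figure D3:**
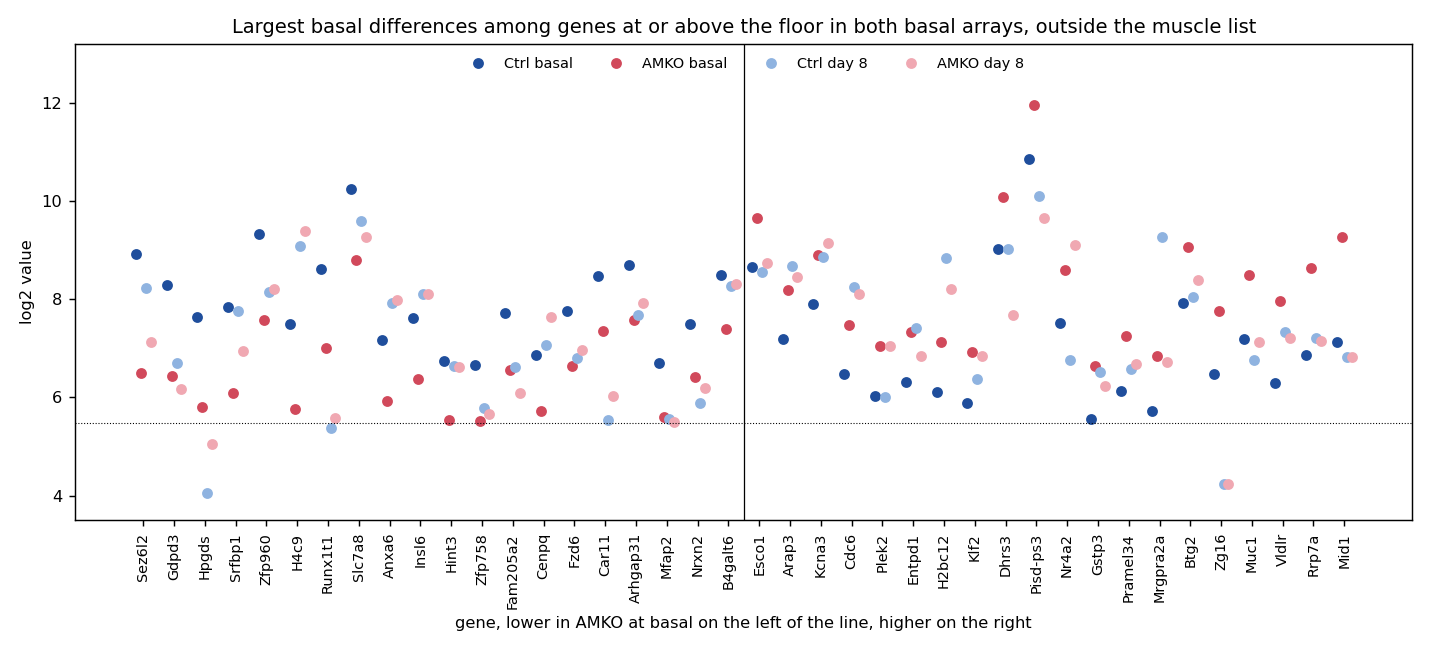
Log2 values in the 4 arrays of the 20 genes with the lowest and the 20 with the highest basal difference among those at or above the floor in both basal arrays, outside the muscle list, with 1 point per array and a dotted line at the floor. The basal points (dark blue for Ctrl, dark red for AMKO) are at least 0.99 apart in every gene, and the day 8 points (light) lie mostly closer together, as for Mid1 at 6.82 in both.

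Immediate early genes lay higher in AMKO as a group. Of 68 listed genes 65 were measured and 61 kept, and 48 of the 61 were higher in AMKO, where 49.4% of all kept genes were higher. The median difference was 0.28, against 0.00 over all kept genes, and 0.24 over all measured members. At least 1.5-fold higher were 13 of the 61, and 1 was at least 1.5-fold lower. Among all kept genes those shares were 2.51% and 3.63%. At least 2-fold higher were 3 members (0.228% of all kept genes were) and 0 were lower (0.697%). The median basal level of the list was 7.345, within the third of the bins of levels, where the median over all kept genes was -0.03. None of the 61 reached the floor in the AMKO basal array alone. The list was chosen with earlier results on these arrays known, so its direction at basal is no independent evidence.

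All genes of the AP-1, EGR and NR4A families lay higher in AMKO, by different sizes. The 7 AP-1 genes were higher, with a median of 0.57. Fosb, an AP-1 subunit, stood at 9.99 in Ctrl and 10.89 in AMKO at basal, and at 7.21 and 10.67 at day 8. Fos, its relative, had 9.62 and 10.31 at basal, and 8.20 and 9.93 at day 8. Both AMKO arrays thus stood above the Ctrl array of the same time, and the gap was wider at day 8. Jun, the partner of both, differed by 0.34 at basal and 1.79 at day 8, and Junb by 0.57 and 0.91. All 3 NR4A nuclear receptor genes were higher, with a median of 0.90. Nr4a1 stood at 8.75 and 9.65 at basal, and at 7.80 and 10.82 at day 8. Nr4a2 stood at 7.51 and 8.60, and at 6.77 and 9.11. Nr4a3, near the floor, differed by 0.29. The 4 kept genes of the EGR group had a median of 0.225, led by Egr1, a zinc finger factor, at 8.57 and 8.92. Egr2 and Egr3 differed by 0.05 and 0.12, and Nab2, listed with the family, by 0.33.

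Another group held IER and KLF genes together with other induced genes, such as Btg2, Csrnp1, Maff, Myc and Srf. Of these 16 of 17 were higher, with a median of 0.16. Btg2, an antiproliferative cofactor, had the largest value of the list, 7.92 in Ctrl and 9.07 in AMKO, with 8.04 and 8.39 at day 8. Klf2, a zinc finger factor of quiescent lymphocytes and endothelium, had 5.88 and 6.93, with 6.38 and 6.85 at day 8. Genes that feed back on signaling were divided, with 12 of 21 higher and a median of 0.09. Zfp36, which destabilizes cytokine messages, stood at 11.20 and 11.99, while Rgs2, a regulator of G-protein signaling, stood at 7.73 and 6.96 and Plk2, a polo-like kinase, at 7.87 and 7.30. Secreted and signal genes had a median of 0.13. Ptgs2, the inducible cyclooxygenase, was under the floor in Ctrl (5.39) and at 6.19 in AMKO, and the chemokine gene Ccl3 was lower in AMKO, at 6.33 and 5.84.

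The day 8 difference uses no array of the basal one, but the list was chosen with both known, so the day 8 values are set beside the basal ones as a description. There the median over the 61 genes was 0.46, with 10 at least 2-fold higher (0.740% of all kept genes) and 1 lower (2.63%). Higher in AMKO at both times were 39 of the 61, where 29.7% of all kept genes were. Which genes led was not the same. Btg2 and Klf2 differed by 0.35 and 0.47 at day 8, and Fosl2 and Klf4, higher by 0.70 and 0.66 at basal, stood at -0.22 and -0.28. The Ctrl day 8 array also held high levels of neutrophil and B-lineage genes (the AMKO minus Ctrl medians there were -5.21 and -2.615, against 0.02 and -0.065 at basal), and the part of these in the day 8 values was not tested.

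**Figure D4:**
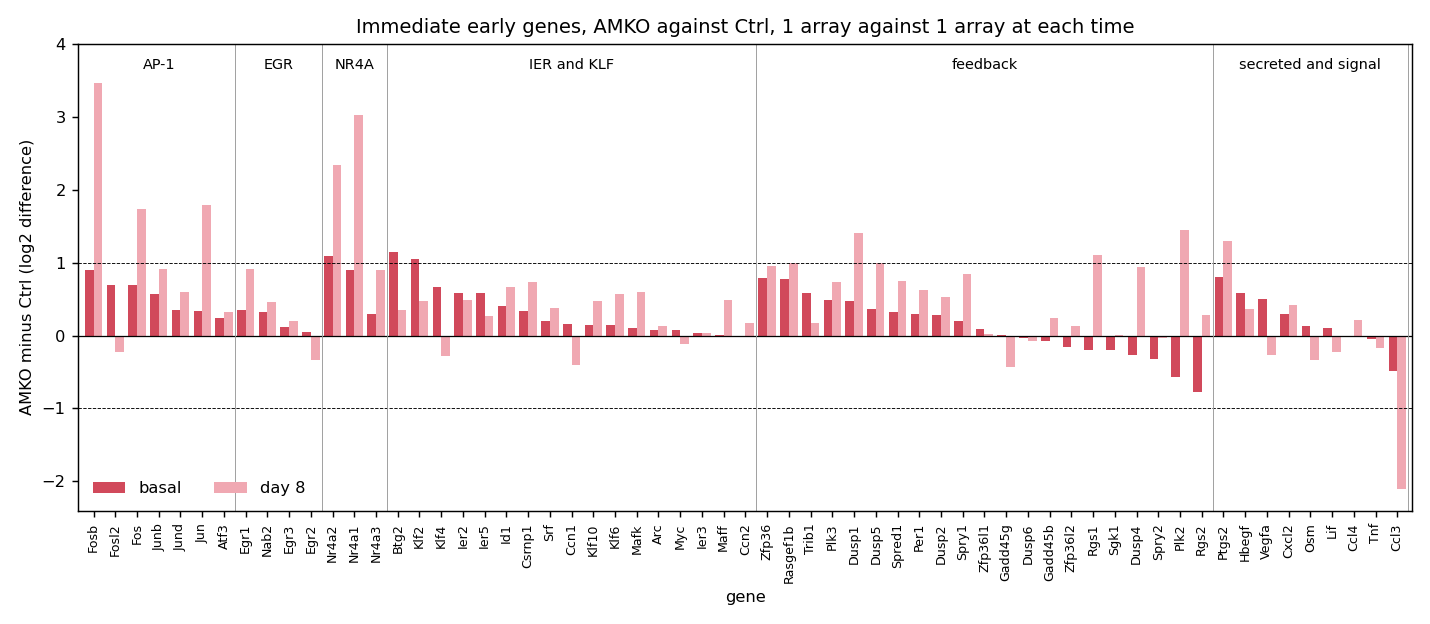
AMKO minus Ctrl log2 differences of the 61 kept immediate early genes at basal (dark bars) and at day 8 (light bars), by family and ordered by the basal value, with dashed lines at 2-fold. All AP-1, EGR and NR4A genes are above 0 at basal, and the day 8 bars of Fosb, Fos, Jun, Nr4a1 and Nr4a2 are longer than their basal bars.

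The promoters of the 3 genes at least 2-fold higher at basal are shown because immediate early genes are known to be switched on through sites for the factors CREB, serum response factor and MEF2. They are the 250 bases before the RefSeq start (GRCm38.p6) of Btg2 at chr1:134079156-134079405 on the minus strand, Nr4a2 at chr2:57124004-57124253 on the minus strand and Klf2 at chr8:72318812-72319061 on the plus strand. Capitals mark a cAMP response element (TGACGTCA) in Btg2, a MEF2 site in Nr4a2 with a TATA box (TATAAA) inside it on the opposite strand, and a MEF2 site in Klf2.
Btg2: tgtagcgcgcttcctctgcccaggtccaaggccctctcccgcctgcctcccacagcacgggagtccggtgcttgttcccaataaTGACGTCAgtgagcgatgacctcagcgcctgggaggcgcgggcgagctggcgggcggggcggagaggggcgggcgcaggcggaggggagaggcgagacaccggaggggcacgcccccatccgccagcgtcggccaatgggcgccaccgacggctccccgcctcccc
Nr4a2: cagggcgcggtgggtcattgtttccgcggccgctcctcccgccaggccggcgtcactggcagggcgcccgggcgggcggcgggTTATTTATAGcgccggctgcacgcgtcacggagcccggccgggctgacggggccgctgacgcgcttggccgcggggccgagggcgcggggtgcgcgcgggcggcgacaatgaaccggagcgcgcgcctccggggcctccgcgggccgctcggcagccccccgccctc
Klf2: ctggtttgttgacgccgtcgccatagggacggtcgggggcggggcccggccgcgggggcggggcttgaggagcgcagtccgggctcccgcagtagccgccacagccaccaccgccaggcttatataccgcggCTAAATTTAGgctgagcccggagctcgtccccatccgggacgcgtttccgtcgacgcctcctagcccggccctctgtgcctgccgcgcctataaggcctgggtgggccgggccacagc
Of the 46 promoters found for kept immediate early genes, 3 held a full cAMP response element, 3 a CArG box and 4 a MEF2 site. Of all 27025 promoters of this length, 1.62%, 1.40% and 1.73% did. The basal differences of these genes cannot be assigned to any of these sites.

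Heat shock genes did not share the pattern. Over 22 kept chaperone genes the median was -0.025, and only Hspa1a, an inducible HSP70, was at least 2-fold higher, with 4.99 in Ctrl and 6.03 in AMKO at basal and 4.92 and 7.96 at day 8. Hspa1b, its near-identical copy, had 5.57 and 5.85 at basal, and signal may be divided between them. Dnajb1, an HSP40 that works with HSP70, differed by 0.68, and Hspe1, the mitochondrial co-chaperonin, by -0.47.

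Stem cell genes were close in both genotypes, and the medians of the lineage lists given here lay between -0.10 and 0.255. Over the 40 kept genes of long-term stem cells the median was 0.02, with 21 higher, 17 lower and 0 at least 1.5-fold different, and their differences lay between -0.46 and 0.50. Slamf1, the CD150 marker, stood at 9.79 in Ctrl and 10.17 in AMKO, and Procr, the EPCR marker, at 9.03 and 8.83. Hlf, a transcription factor of stem cells, stood at 10.15 and 9.79, and Cd34 at 9.35 and 9.72. Megakaryocyte and platelet genes had a median of 0.15 over 15, with Itga2b (the CD41 integrin) at 9.73 and 10.21. Multipotent progenitor and lymphoid genes had a median of 0.11 over 17, which was 0.00 when probe sets were averaged. Erythroid genes had 0.04 over 22, and Kel, under the floor in both basal arrays, differed by 1.01 (4.15 and 5.16). B-lineage genes had -0.065 over 10 and T and NK genes -0.07 over 10. Under the floor in both basal arrays were 6 of the B-lineage genes and 5 of the T and NK genes. Granulocyte-monocyte progenitor genes had a median of 0.255 over 12, with 8 higher (49.4% of all kept genes were). Their median basal level was 5.52, within the lowest of the bins of levels. In that bin 61.1% of kept genes were higher, with a median of 0.09. Of the 12 genes 3 were under the floor in both basal arrays. Endothelial genes had -0.10 over 13, with Kdr, the main receptor for vascular growth factor, at 7.92 and 7.19.

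MHC class II genes were lower in AMKO. Of 6 kept genes 5 were lower (49.0% of all kept genes were), with a median of -0.54. H2-Ab1, a class II beta chain, stood at 10.19 in Ctrl and 9.41 in AMKO at basal, and at 10.13 and 9.47 at day 8. H2-Aa, its alpha chain partner, stood at 9.12 and 8.41, and at 8.52 and 7.21. H2-Eb1 differed by -0.53 at basal and -1.05 at day 8. In these genes both AMKO arrays were under the Ctrl array of the same time, while H2-DMa, which helps load peptides, differed by -0.55 at basal and 0.04 at day 8. The Ctrl day 8 array also held high levels of B-lineage genes (an AMKO minus Ctrl median of -2.615 there). The part of these in the day 8 values of class II genes was not tested. Ciita, the master activator of the class, differed by -0.21. The 6 kept dendritic cell genes had a median of 0.105.

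Genes of homologous recombination and the Fanconi anemia pathway, which repair broken and crosslinked DNA, lay higher in AMKO. Of 16 kept genes 14 were higher (49.4% of all kept genes were), and the median was 0.33. At day 8 the median was 0.16, and 8 of the 16 were higher at both times (29.7% of all kept genes were). Fanci, a subunit of the complex that marks crosslinks, stood at 5.91 in Ctrl and 6.68 in AMKO. Brca1 differed by 0.38 and Fancl by -0.38. The median basal level of these genes was 6.42, within the second of the bins of levels, where the median over all kept genes was -0.01. Mismatch and excision repair genes had a median of -0.09 over 11. Replication genes had 0.07 over 45 and mitosis genes -0.025 over 40, with Bub1b, a spindle checkpoint kinase, at 6.77 and 7.62.

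The 14 kept ATF4 target genes had a median of 0.21. Asns, asparagine synthetase, stood at 7.60 in Ctrl and 8.36 in AMKO, and Phgdh, the first enzyme of serine synthesis, at 8.13 and 8.81. Ddit3, a stress factor of the same pathway, differed by -0.38. Xbp1, a transcription factor of the unfolded protein response, stood at 9.43 and 10.23 and Hspa5, the main chaperone of the endoplasmic reticulum, differed by 0.47, while the 12 chaperone genes had a median of 0.045. At day 8 Xbp1, Asns and Phgdh differed by -0.17, -0.02 and 0.19.

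Genes of the mitochondrial respiratory chain and of the ribosome lay slightly lower in AMKO, by amounts small against the spread of single genes. Of 43 oxidative phosphorylation genes 35 were lower (49.0% of all kept genes were), with a median of -0.12. All 8 complex III genes were lower, by 0.40 at most. Cox6b1, a complex IV subunit, was the only one at least 2-fold lower, at 9.11 in Ctrl and 8.05 in AMKO, with 9.64 and 9.98 at day 8. Cytosolic ribosomal protein genes had a median of -0.14, with 40 of 49 lower, and mitochondrial ribosomal ones a median of -0.085 over 70. Rps25 was at 8.73 and 7.79, while Rpl34 went the other way, at 7.25 and 8.18, and both families have many pseudogenes that can share probes. The genes with the highest levels leaned lower by 0.03 as a whole. At day 8 the oxidative phosphorylation median was 0.16 and the cytosolic ribosomal median was 0.09. Antioxidant genes had a median of -0.14 over 24. Nnt, the transhydrogenase that supplies mitochondrial NADPH, stood at 7.94 and 7.26 at basal and at 7.82 and 7.16 at day 8, lower in AMKO at both times, and Gsta4, a glutathione transferase, differed by -0.75 at basal and 0.79 at day 8.

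**Figure D5:**
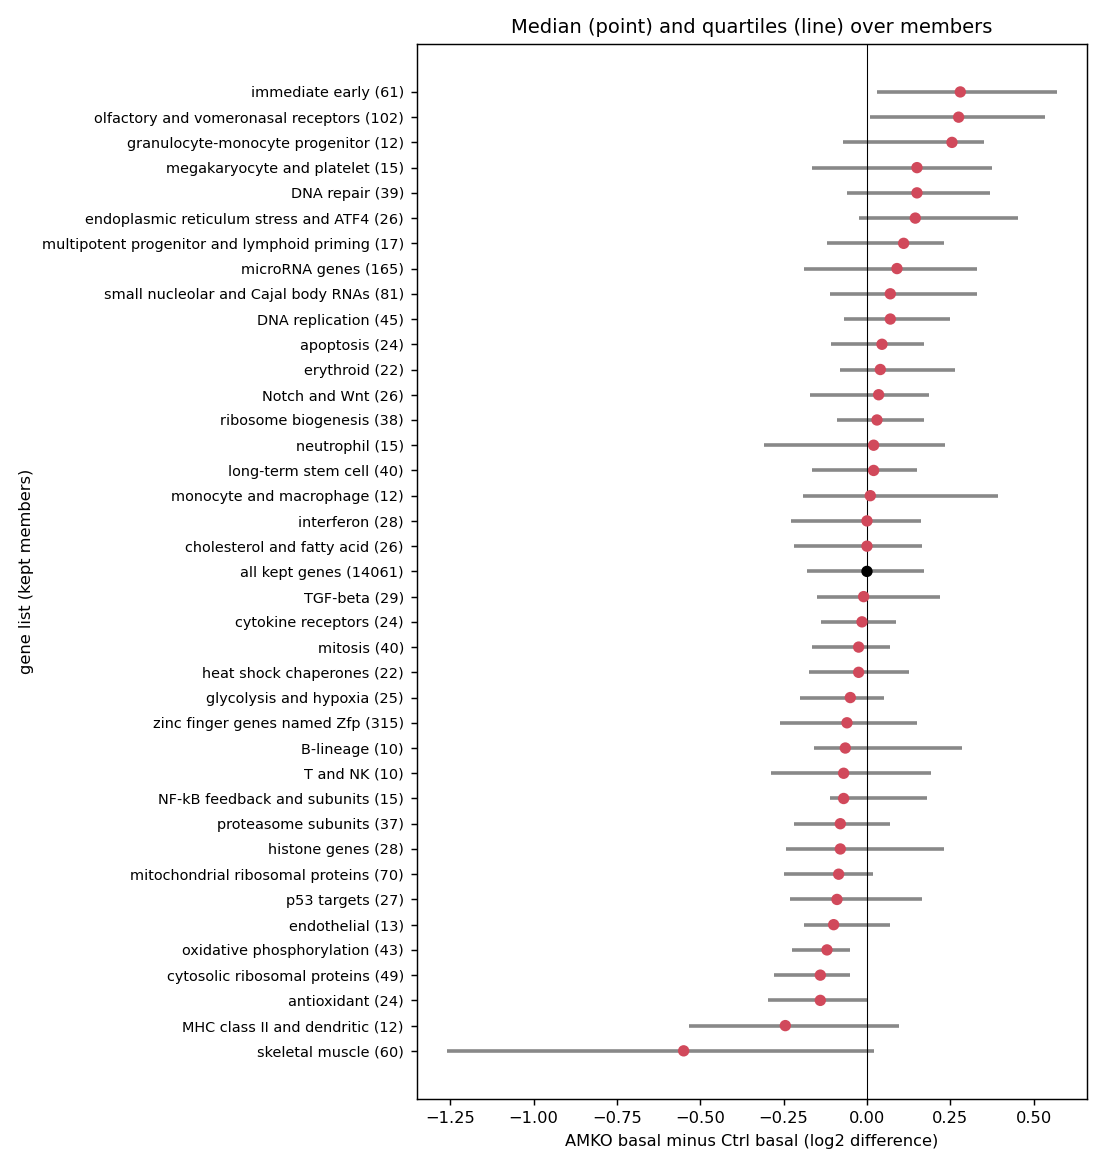
Median (point) and quartiles (line) of the basal AMKO minus Ctrl log2 difference over the kept members of each list with at least 10 of them (number in brackets), with all 14061 kept genes in black. Skeletal muscle genes lie lowest (median -0.55) and immediate early genes highest (0.28), and most medians lie within 0.15 of 0.

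Zinc finger and histone genes held several of the lowest values. Of 315 kept Zfp genes 6 were at least 2-fold lower (0.697% of all kept genes were) and 0 higher (0.228%), with a median of -0.06. The pairs Zfp982 and Zfp979 (-3.66 and -1.06) and Zfp960 and Zfp97 (-1.74 and -1.50) are adjacent in the genome, as are the predicted genes Gm4951, Gm4841 and F830016B08Rik (-1.26, -1.68 and -1.12). Together they gave all 4 adjacent pairs found among the 129 placed genes that differed by at least 2-fold. Members of such clusters are similar in sequence, so 1 transcript can be read by several probe sets. Of 28 kept histone genes 3 were at least 2-fold lower and 1 higher, against 0.697% and 0.228% of all kept genes. H4c9 was at 7.49 in Ctrl and 5.76 in AMKO, H2ac15 at 6.23 and 4.35 and H1f1 at 5.72 and 4.56, and all 3 were above 7 in both genotypes at day 8. H2bc12 was the gene at least 2-fold higher, at 6.11 and 7.13, and in all 10 of the 28 were higher by any size. Histone genes are near-identical copies, and which copy was read is uncertain.

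Small RNA genes had differences in both directions. Of 165 kept microRNA genes 9 were lower by at least 2-fold (0.697% of all kept genes were) and 2 were higher (0.228%), with a median of 0.09. The probe sets read the gene or its hairpin, and mature forms were not measured. The genes with the largest difference either way were Mir32, at 6.13 in Ctrl and 3.48 in AMKO with 3.07 and 3.27 at day 8, and Mir493, at 3.92 and 5.73 with 3.33 and 3.59. Mir92-2, the other higher gene, was at 4.47 and 5.56. Mature sequences of these genes (RefSeq, GRCm38.p6) are shown with the seed, bases 2 to 8, in capitals, because miR-32-5p and miR-92a-3p share it. The other mature forms of Mir32 and Mir92-2, miR-32-3p and miR-92a-2-5p, have different seeds and are not shown.
miR-32-5p: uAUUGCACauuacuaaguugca
miR-92a-3p: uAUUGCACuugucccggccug
miR-493-5p: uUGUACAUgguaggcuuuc
miR-493-3p: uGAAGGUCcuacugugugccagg
The first lies at chr4:56895272-56895293 on the minus strand and the second at chrX:52741854-52741874 on the minus strand. Those of Mir493 lie at chr12:109580243-109580261 and chr12:109580283-109580305 on the plus strand. Each of the 3 genes was kept through the array where it was high, so the sizes are uncertain, and the difference of Mir92-2 (1.09) was 0.9975 with quantile normalization and 0.99 with the level trend removed. Of 81 kept small nucleolar and Cajal body RNA genes 2 were at least 2-fold higher (0.228% of all kept genes were) and 0 lower (0.697%). Scarna17, which guides modification of spliceosomal RNA, stood at 7.37 and 8.70 and its second probe set gave 0.99. Snord35b stood at 5.89 and 7.23.

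Most genes that differed by at least 2-fold at basal differed by less at day 8. Of the 32 higher genes 3 were at least 2-fold higher at day 8 too, where 0.740% of all kept genes were, 6 were lower (2.63%) and 23 differed by less. The 3 were Nr4a2, Hspa1a and Plek2, a pleckstrin family protein of the cytoskeleton, which stood at 6.03 in Ctrl and 7.05 in AMKO at basal and at 6.0 and 7.05 at day 8. After median centring the basal differences of Hspa1a and Plek2 were 0.96 and 0.94, under 2-fold. Of the 98 lower genes 6 were lower at day 8 too (2.63% of all kept genes), 5 were higher (0.740%) and 87 differed by less. The 6 were Tnnc2 and Sez6l2, the microRNA genes Mir181b-2, Mir340 and Mir3473b, and 4921509C19Rik. Tnnc2, the calcium-binding troponin of fast fibres, stood at 9.07 and 7.28 at basal and at 7.73 and 6.62 at day 8. The median day 8 difference was -0.04 over the genes higher at basal and 0.00 over those lower.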

How the data were processed

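RNA of 4 sorted samples was measured on Affymetrix arrays, 1 per group. The authors' deposited table holds 1 value per probe set and array, read as log2 because the values lie between 1.99 and 13.43. Scaling and background correction are not stated in the sources used here, and the values were used as deposited. Labelling was with biotin, per the labels. Of 34472 probe sets, 23521 had 1 gene in the platform annotation, 1814 several and 9137 none, and 23328 symbols were updated through RefSeq (GRCm38.p6). A gene was read from its probe set with the highest mean, and kept at a value of at least 5.475, the median of all values, in any array.

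Differences of 1 array from 1 array were counted at 2-fold, with no test. Lists (46, by name or symbol pattern) were described by counts and medians. The members, lists and rules were chosen with earlier results of these data known. Named genes were, without predicted or small RNA symbols, the 20 highest and 20 lowest outside the muscle list, the same with both basal arrays at the floor, all members of the muscle, kallikrein, immediate early, heat shock, sex and sort lists, the 5 highest and 5 lowest of each other list, genes at least 2-fold different in 1 direction at both times, and small RNAs at least 2-fold different. Apobec3, Brca1, Ciita, Hspa5, Lsp1, Meis1, Procr, Zfp979, Gm4951, Gm4841 and F830016B08Rik were chosen after their values were seen. Alternatives were quantile normalization, median centring, the mean of probe sets, the probe set highest at basal, other floors and sizes, and counts without tissue lists. Removal of the trend with level (a running median over 501 genes) was added after the data were seen. Python 3.11.15, numpy 2.4.6, pandas 2.3.3 and matplotlib 3.10.9 were used, and the counting was tested on simulated data. The number of arrays limits the precision.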

Additional observations from a re-analysis of the deposited data

Results flagged for a closer look

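Several genes differed by at least 2-fold in opposite directions at basal and at day 8. The difference between the times was not tested, with 1 array in each group. Mir23a, a microRNA gene, had a difference of -1.07 at basal and 3.58 at day 8, standing at 7.70 in Ctrl and 6.63 in AMKO at basal and at 4.93 and 8.51 at day 8. Hpgds had -1.84 and 1.01, Gm4841 had -1.68 and 1.26, F830016B08Rik had -1.12 and 1.03, and Mir1929 had -1.08 and 1.11.

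In the other direction, BC018473 had 2.73 at basal and -3.35 at day 8. Mrgpra2a had 1.13 and -2.54, Stfa1, a stefin known from neutrophils, had 1.04 and -2.05, and Kel, an erythroid surface protein, had 1.01 and -1.82. For these 4 genes the Ctrl day 8 array was the highest (7.73, 9.27, 6.41 and 6.63), and it was also the array with high neutrophil genes (a median AMKO minus Ctrl difference of -5.21 at day 8). The part of those cells in the 4 values was not tested. Dhrs3 had 1.06 and -1.35, and Snord35b had 1.34 and -1.18. Of these genes, 3 fell under 2-fold at basal in other settings, with 0.90 to 0.93 for Kel, 0.94 to 0.96 for Stfa1 and 0.98 for Dhrs3 (median centring).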

How the results depend on the processing

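The main counts were 32 genes higher and 98 lower, and the share higher was 24.6%. Without a floor 51 were higher. With the floor at the 75th percentile (7.32) 19 were higher and 55 lower, and with the floor in both basal arrays 52 were lower, since fewer genes could pass. At 1.5-fold there were 353 higher and 510 lower (40.9% higher), and at 3-fold 6 and 30. Median centring gave a share of 14.0%. The muscle median of -0.55 became -0.31 with no floor, -1.965 with the stricter floor and -0.23 with the floor in both basal arrays. The germ cell median turned to 0.13 with no floor, and the kallikrein and salivary median to 0.10 with the floor in both basal arrays, which leaves Klk1b22 out. Quantile normalization, the probe set highest at basal, the mean of probe sets and removal of the level trend moved none of the counts of higher and lower genes by over 1.5 times. Of the genes named, 13 fell under 2-fold in at least 1 setting, with Rrp7a at 0.725 and Zfp979 at -0.34 when probe sets were averaged, Klf2 at 0.97 after median centring and Hspa1a at 0.94 with the level trend removed. No paired analysis was possible because each group had 1 array. With 1 array a side, no array could be left out.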

Other observations

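Receptors of smell and pheromones, which blood cells are not known for, leaned higher in AMKO at basal among those kept. Of 1394 measured olfactory and vomeronasal receptor genes 102 were kept, and their median difference was 0.275. Higher were 77 of the 102 (49.4% of all kept genes were) and lower were 25 (49.0%). In the bin of kept genes with the lowest levels 61.1% were higher. The floor favours this direction. Of all kept genes 331 reached it in the AMKO basal array alone, and 139 in the Ctrl basal array alone. The values over the kept receptors are thus a description and no support. Over all 1394 the median was 0.09, the same as over the bin of kept genes with the lowest levels, and with the floor at the 75th percentile it was 0.04. The low level of these genes moves with the value, and its part in the result was not tested.

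Other genes chosen by the rule had values that belong to no group above. Notch4, a Notch receptor, stood at 6.31 in Ctrl and 7.01 in AMKO, and Rbpj, the DNA-binding partner of Notch, at 7.38 and 6.73. Nfkbiz, an inducible regulator of NF-kB, stood at 7.44 and 8.05 at basal and at 7.36 and 7.97 at day 8. Insig1, a sensor that holds back cholesterol synthesis, stood at 8.20 and 7.45. Oas2, an interferon-induced enzyme, stood at 6.44 and 7.22, while the 28 kept interferon genes had a median of 0.00.

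Probe sets with several genes or none in the platform annotation gave a like split. Of 4380 such probe sets at the floor, 36 were at least 2-fold higher in AMKO and 108 lower, with a median of 0.00.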
